A study of Homo sapiens with 8 samples.

Results

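The comparison described here sets 2 sublines of HCT116 against each other, both without doxycycline. HCT116 is an established human colon carcinoma line, and each subline carries a different stably introduced short hairpin RNA against the homeobox gene HOXB8, designed to be expressed only when doxycycline is added. The members are the 4 libraries made without doxycycline, 2 of the sh2 line and 2 of the sh1 line, of 8 libraries in the series, and 11660 of the 17166 genes listed averaged 1 FPKM or more across these 4. FPKM (fragments scaled by transcript length and by the size of the library) was the unit of every level, and the other 5506 genes were not tested.

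The sh2 group without doxycycline and the sh1 group without doxycycline each held 2 libraries, prepared from polyadenylated RNA of cells harvested after 72 h. The same lines given 1 ug/ml doxycycline for 72 h gave 2 further libraries each, which entered the estimate of the spread and a comparison of the lines under the drug. Every library came from cells with a HOXB8 hairpin, so no parental or non-targeting line stood beside them. Whether a line is a pool or a clone is not given in the sources used here. With 1 line per hairpin, the hairpin, any action of it without the drug, its integration and the history of the line cannot be told apart. The labels call the repeats independent without saying what was repeated, so p-values measure the spread between these libraries. The deposited table calls the second hairpin sh3 where the titles say sh2, and its columns were matched by elimination. A source description shared by all 8 samples says induced, whereas the titles put 4 of them without the drug, and the titles were followed.

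The FPKM columns of all 8 libraries summed to between 440063 and 446889, and 15592 to 15762 genes were above 0. Total reads are unknown. In 57 genes of low level the value of 1 read differed by a factor of 0.9975 to 1.005 among the 4 libraries, although the choice of those genes limits how large a difference could have been seen. Repeats correlated at r = 0.9974 in sh2 and r = 0.9976 in sh1 across genes on the log2 scale, and sh2 with sh1 libraries at 0.9958 to 0.9963. Of 12 colon epithelial markers, 10 reached the tested level, with EPCAM at 199.13 and 197.39 FPKM in sh2 and 187.37 and 195.82 FPKM in sh1, while the villus marker VIL1 was at or near 0 in all 4. Fibroblast markers summed to 11.38 to 12.63 FPKM in sh2 and 10.57 to 11.15 FPKM in sh1. Of 11 listed, 2 reached the tested level, COL1A1 highest at a mean of 7.17 FPKM, and PDGFRA was at 0. Immune markers summed to 14.5 to 15.38 FPKM in sh2 and 12.34 to 13.51 FPKM in sh1. Of 12 listed, 3 reached the tested level, CD68 highest at a mean of 6.97 FPKM, and MS4A1 was at 0. Endothelial markers summed to 5.3 to 5.31 FPKM in sh2 and 5.02 to 5.19 FPKM in sh1. Of 7 listed, 1 reached the tested level, ESAM at a mean of 4.65 FPKM.

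YAP and TAZ are coactivators that enter the nucleus of spread or mechanically loaded cells, where with TEAD factors they switch on secreted matrix proteins such as CTGF and CYR61. Hypoxia-inducible factors accumulate when oxygen is low and raise glycolytic enzymes and mitophagy receptors. ATF4 is the transcription factor through which amino acid shortage and other stresses raise amino acid transporters and transfer RNA synthetases.

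HOXB8, the target of both hairpins and a posterior HOX transcription factor, was at 17.33 and 18.38 FPKM in sh2 against 20.8 and 20.42 FPKM in sh1. The sh2 libraries both lay under the sh1 libraries, by 13.4% of the mean, but the difference did not pass the test (log2 difference -0.20, SE 0.08, limma adjusted p = 0.202). In 20.8% of all genes tested both sh2 libraries lay under the sh1 libraries. With the drug HOXB8 was at 7.39 and 6.41 FPKM in sh2 and 6.54 and 5.74 FPKM in sh1, under both uninduced groups. BACH1, a heme-sensing repressor of antioxidant genes, stood at 6.47 and 5.93 FPKM in sh2 and 6.28 and 6.68 FPKM in sh1, with overlapping groups (limma adjusted p = 0.715). The list of HOX cluster genes gave 0 calls among 23 tested, where 4 had an unadjusted p under 0.05. The lowest p among them was that of HOXB4, a more anterior gene of the same cluster as HOXB8, at 9.51 and 8.34 FPKM in sh2 and 10.35 and 10.76 FPKM in sh1 (limma adjusted p = 0.128).

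Without doxycycline, the sh2 line had lower levels of several YAP and TEAD target genes, of both cytoplasmic actins, of the keratins KRT8 and KRT18, of the caveolins CAV1 and CAV2, of MYC and of several amino acid stress genes. It had higher levels of several genes known to respond to hypoxia, of a few cholesterol genes and of the clock-output factor DBP. Of the 11660 genes, 170 passed an adjusted p under 0.05, which is 1.46%. Of these, 97 were higher in sh2 (0.832% of genes tested) and 73 were lower (0.626%), and 2108 genes had an unadjusted p under 0.05. The differences were modest: their median size was 0.34 on the log2(FPKM + 1) scale, 27 genes differed by more than 1.5-fold in mean FPKM and 7 by more than 2-fold. The genes lower in sh2 were the more abundant, with a median level of 39.6 FPKM against 12.2 FPKM for the genes higher in sh2 and 12.25 FPKM for all genes tested. In all 170 both sh2 values lay on the same side of the sh1 values, which was true of 53.1% of all genes tested.

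**Figure D1:**
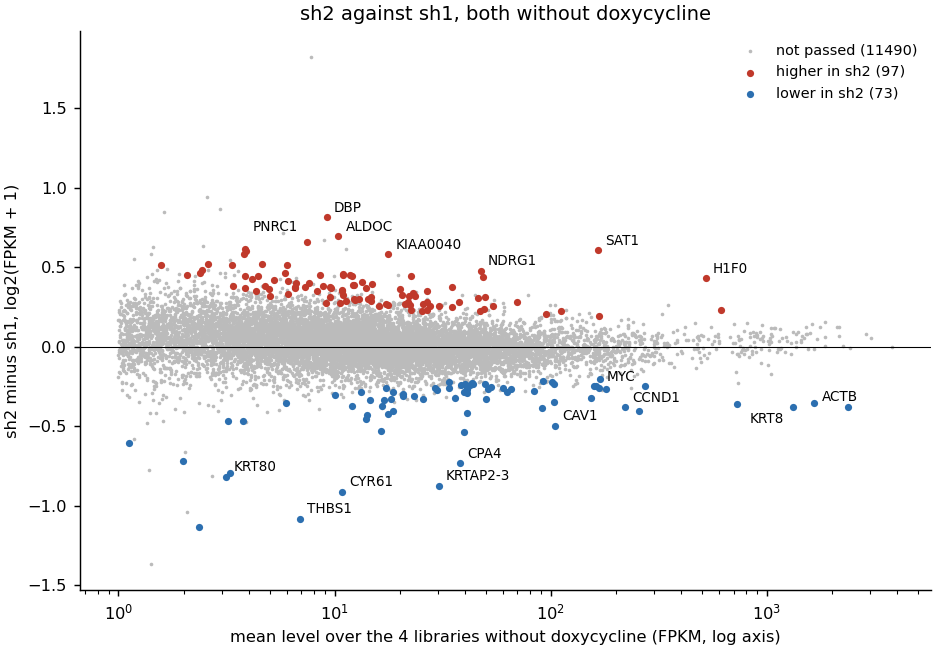
Each point is 1 of the 11660 genes tested, with its mean level over the 4 libraries without doxycycline (FPKM, log axis) against the difference sh2 minus sh1 of log2(FPKM + 1). The 97 red genes passed the test as higher in sh2 and the 73 blue genes as lower, and the abundant KRT8 and ACTB lie among the lower ones.

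The number of calls rested on having all 4 libraries. It was 13 without sh2 replicate 1, 18 without sh2 replicate 2, 28 without sh1 replicate 1 and 18 without sh1 replicate 2. Only 9 of the 170 genes kept their call in all 4 of these fits: CYR61, KRTAP2-3, CPA4, CAV1, CCND1 and KRT8 as lower, and ALDOC, PNRC1 and KIAA0040 as higher. A further 140 kept it in none of the 4. All 170 kept their direction in every alternative run. Only a change of scaling could have reversed it, since their groups did not overlap. The single-gene calls given here without a leave-out result were lost in at least 1 of these 4 fits. Scaling moved the balance between the directions: against 97 higher and 73 lower, quantile normalization gave 63 higher and 71 lower, and median-of-ratios scaling 79 higher and 120 lower. The median difference over all genes was 0.02 (log2), and 6762 of the 11660 differences were positive and 4898 negative.

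Among the YAP and TEAD targets, 8 of 20 tested fell in sh2 and 0 rose, and 12 did not pass, where 0.626% of all genes tested fell. Their median log2 difference was -0.16, against 0.02 over all genes tested. Of the 20 differences 18 were negative, against 4898 of 11660 over all genes tested. Of the 20, 15 had groups that did not overlap, 14 of them with sh2 lower, where 53.1% of all genes tested did not overlap and 20.8% did so with sh2 lower. Leaving out any 1 of the 4 libraries left 2 calls in the list, no trend in the moderation left 4, and no filter on low genes left 0.

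THBS1, which encodes the matrix glycoprotein thrombospondin, was at 3.93 and 4.2 FPKM in sh2 against 10.21 and 9.22 FPKM in sh1. It was the largest fall among the list, 58.2% of the mean, with a log2 difference of -1.08 (SE 0.12, limma adjusted p = 0.00311), and its call was lost only without sh2 replicate 1 (adjusted p = 0.0565) among the 4 leave-out fits. CYR61, a secreted matricellular protein that binds integrins, was at 7.47 and 6.88 FPKM in sh2 against 14.82 and 13.93 FPKM in sh1. The sh2 mean was 0.499 of the sh1 mean, with a log2 difference of -0.91 (SE 0.09, adjusted p = 0.00207), and the call held with any 1 library left out (adjusted p 0.019 to 0.038) but not with no filter on low genes (0.0513). CTGF, its close relative, was at 2.49 and 1.79 FPKM in sh2 against 4.5 and 4.3 FPKM in sh1, a log2 difference of -0.79 (SE 0.12, adjusted p = 0.0129) that passed in only 1 of the 4 leave-out fits. Its sh2 values spread more, relative to their level, than the sh1 values.

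The other 5 called members were nearer to 1.5-fold or below it and none kept its call with 1 of the 4 libraries left out. F3, the tissue factor that starts coagulation, was at 33.17 and 31.08 FPKM in sh2 and 50.39 and 43.76 FPKM in sh1 (log2 difference -0.53). AMOTL2, a junction scaffold that binds YAP, was at 13.96 and 12.43 FPKM in sh2 and 20.58 and 18.39 FPKM in sh1 (-0.53). AXL, a receptor tyrosine kinase, was at 33.86 and 35.89 FPKM in sh2 and 46.19 and 47.47 FPKM in sh1 (-0.42). In all of them the lower sh1 library stood clear of the higher sh2 library. The remaining pair were CRIM1, a transmembrane protein with cysteine-rich repeats, and the LIM-domain scaffold AJUBA, with log2 differences of -0.37 and -0.28. The member whose difference was most positive was GADD45A, at 38.9 and 35.22 FPKM in sh2 and 32.29 and 34.58 FPKM in sh1, which did not pass (adjusted p = 0.206).

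TEAD factors recognise the letters GGAATG, and the stretches just before the gene starts of 2 called members are shown because they carry these letters. The sequences are from RefSeq on GRCh38.p14, a build other than the hg19 named for the deposited values, as the 250 bases before the annotated start, 5′ to 3′ in the direction of the gene, with GGAATG in capitals. CTGF lies on the minus strand at chr6:131951373-131951622 and THBS1 on the plus strand at chr15:39580829-39581078.
CTGF: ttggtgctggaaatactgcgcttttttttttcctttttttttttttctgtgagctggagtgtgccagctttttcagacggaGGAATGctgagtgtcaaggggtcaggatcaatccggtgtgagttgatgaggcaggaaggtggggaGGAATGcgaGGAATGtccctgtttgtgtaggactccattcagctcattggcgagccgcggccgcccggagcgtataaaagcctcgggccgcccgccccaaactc
THBS1: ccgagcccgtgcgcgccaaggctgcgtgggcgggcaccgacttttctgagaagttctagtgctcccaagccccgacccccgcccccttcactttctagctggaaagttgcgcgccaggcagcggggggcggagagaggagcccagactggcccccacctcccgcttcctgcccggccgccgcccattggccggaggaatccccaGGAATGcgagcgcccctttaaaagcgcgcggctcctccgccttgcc
GGAATG was searched on both strands, as CATTCC on the other. It was found 3 times in the CTGF stretch and 1 time in that of THBS1. Of 13 list members with a stretch in the RefSeq table, 4 held it (30.8%), against 3248 of 27305 stretches in the whole table (11.9%), without matching for base composition. Of the 8 called members, 6 had a stretch. By outcome, the 4 with the letters were 2 of these 6 and 2 of 7 that did not pass, so the called members did not all carry it.

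**Figure D2:**
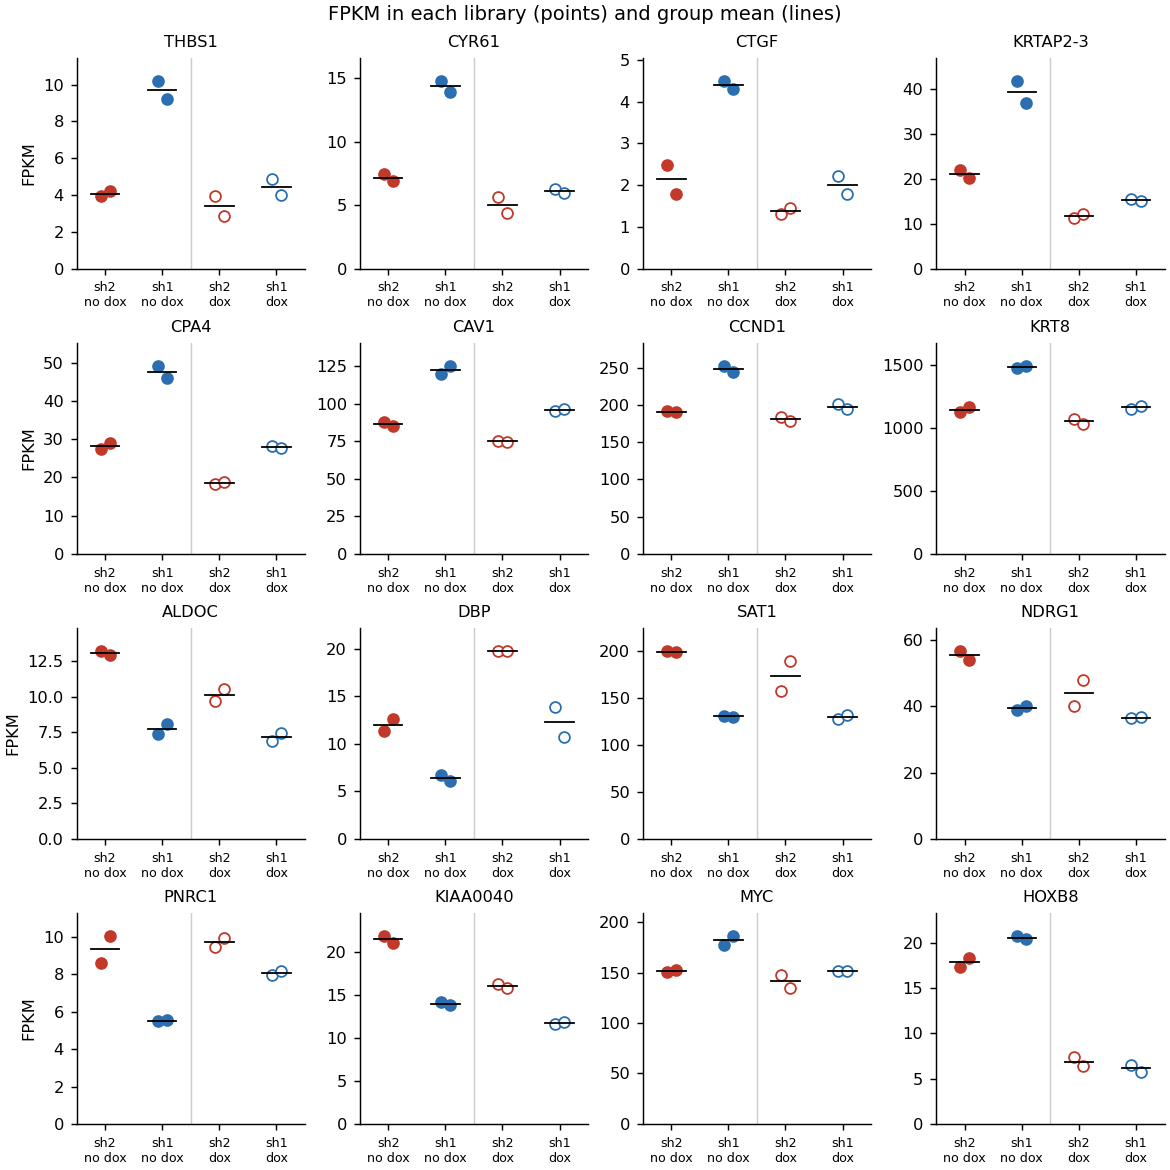
FPKM of 16 genes in every library, with sh2 in red and sh1 in blue, filled points without doxycycline, open points with it, and lines at the group means. Without the drug the 2 sh2 points lie under the 2 sh1 points for THBS1, CYR61, CTGF, KRTAP2-3, CPA4, CAV1, CCND1, KRT8, MYC and HOXB8, and above them for ALDOC, DBP, SAT1, NDRG1, PNRC1 and KIAA0040, and HOXB8 did not pass the test.

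Genes of the actin cytoskeleton and its transcription factor SRF also differed: of 23 tested, 4 fell in sh2 and 1 rose, with a median log2 difference of -0.07. Of these differences 15 were negative, against 4898 of 11660 over all genes tested, where 0.626% fell and 0.832% rose by the test. The 2 cytoplasmic actins were among the most abundant genes of the cell. ACTB was at 1397 and 1515 FPKM in sh2 against 1831 and 1878 FPKM in sh1 (log2 difference -0.35, SE 0.05, adjusted p = 0.0105). ACTG1 was at 1977 and 2146 FPKM in sh2 against 2649 and 2705 FPKM in sh1 (-0.38, SE 0.07, adjusted p = 0.0241). Both have many near-identical pseudogene copies, so how reads were shared among copies is uncertain. FLNA, the actin crosslinker filamin, was at 135.7 and 136.2 FPKM in sh2 against 168.3 and 171.6 FPKM in sh1 (-0.32, adjusted p = 0.00396). CNN2, a calponin, fell by 0.22 and TAGLN2, a relative of transgelin, rose by 0.28. The list kept at most 1 call with 1 of the 4 libraries left out and 1 with no filter or no trend, and the CNN2 call was also lost under quantile normalization (adjusted p = 0.0638).

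Keratins build the intermediate filaments of epithelial cells, and 3 of 8 tested fell in sh2 and 0 rose, with a median of -0.18. All 8 differences were negative, against 4898 of 11660 over all genes tested, where 0.626% fell by the test. KRT8 was at 1121 and 1161 FPKM in sh2 against 1476 and 1492 FPKM in sh1 (log2 difference -0.38, SE 0.04, adjusted p = 0.00207). Its partner in simple epithelium, KRT18, was at 611.4 and 668.7 FPKM in sh2 against 796.8 and 842 FPKM in sh1 (-0.36, SE 0.05, adjusted p = 0.00861). The pair differed by similar amounts in the same direction, and both have processed pseudogenes. Summed over the epithelial markers, which include both, the level was 2960 to 3152 FPKM in sh2 against 3516 to 3585 FPKM in sh1. KRT8 and KRT18 were the only 2 of these markers called. ELF3, CLDN4 and ESRP1 lay higher in both sh2 libraries without passing, CLDN4 at 103.78 and 109.66 FPKM in sh2 and 90.6 and 93.54 FPKM in sh1. The sum therefore does not describe the markers as a set. KRT19, another abundant simple keratin, overlapped between the lines at 718.8 and 796.6 FPKM in sh2 and 772.6 and 764.1 FPKM in sh1. KRT80 was low, at 1.8 and 2.21 FPKM in sh2 and 3.9 and 4.69 FPKM in sh1 (-0.82, SE 0.13, adjusted p = 0.0188). Between 1 and 2 of the 3 keratin calls remained with a library left out, 2 with no trend and 0 with no filter.

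Of the keratin-associated and hair keratin genes, which encode cysteine-rich hair proteins, 3 were tested and 1 fell. KRTAP2-3 was at 21.93 and 20.19 FPKM in sh2 against 41.93 and 36.96 FPKM in sh1. It was 46.6% lower, with a log2 difference of -0.87 (SE 0.07, adjusted p = 0.000545), and the call held with any 1 library left out. Its family has near-identical copies, so its reads may belong in part to a relative. KRTAP3-1 was also lower in both sh2 libraries, at 1.64 and 1.71 FPKM in sh2 and 3.12 and 4.37 FPKM in sh1, but did not pass (adjusted p = 0.0669).

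Among 23 integrin and focal adhesion genes tested, 2 fell in sh2 and both were caveolins, the coat proteins of plasma membrane caveolae. Over all genes tested, 0.626% fell. CAV1 was at 87.76 and 85.37 FPKM in sh2 against 119.6 and 125.3 FPKM in sh1, 29.3% lower (log2 difference -0.50, SE 0.04, adjusted p = 0.000582), and kept its call in each leave-out fit (adjusted p 0.00466 to 0.0169). CAV2 was at 36.64 and 36.94 FPKM in sh2 against 44.78 and 42.28 FPKM in sh1 (-0.24, adjusted p = 0.0328). PTRF, a further caveolar coat gene picked after its values were seen, was at 55.33 and 54.5 FPKM in sh2 against 65.75 and 65.85 FPKM in sh1 (-0.26, adjusted p = 0.0155). CAV2 and PTRF lost their calls without any 1 of the 4 libraries. No integrin passed, and ITGB5 had the lowest p of them, at 33.47 and 37.94 FPKM in sh2 and 40.21 and 41.9 FPKM in sh1 (adjusted p = 0.117).

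Among 18 matrix proteases and inhibitors, CPA4 fell and ADAM19 rose, where 0.626% of all genes tested fell and 0.832% rose. CPA4, a secreted carboxypeptidase, had the lowest adjusted p of any gene in the comparison. It was at 27.5 and 29.05 FPKM in sh2 against 49.28 and 46 FPKM in sh1, 40.7% lower (log2 difference -0.73, SE 0.05, adjusted p = 0.000417), and it passed in each leave-out fit. ADAM19, a membrane metalloprotease, was at 50.72 and 50.97 FPKM in sh2 and 40.87 and 41.06 FPKM in sh1 (0.31, adjusted p = 0.00861), though its call was lost without any 1 of the 4 libraries. Of 7 mesenchymal genes tested, the collagen crosslinking enzyme LOXL2 rose by 0.39 and AXL fell. Of 16 matrix genes tested, 0 passed, with 4 at an unadjusted p under 0.05. The epithelial junction list gave 1 call among 29: TJP3, a tight junction scaffold, was at 13.56 and 14.06 FPKM in sh2 and 9.56 and 10.14 FPKM in sh1 (0.45, adjusted p = 0.0155). LOXL2 and TJP3 did not pass with any 1 of the 4 libraries left out.

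CCND1, the cyclin of the G1 phase, was the only call among 17 ERK feedback and target genes, where 1.46% of all genes tested were called. It was at 191.5 and 190.1 FPKM in sh2 against 252.7 and 244.3 FPKM in sh1, 23.2% lower (log2 difference -0.38, SE 0.04, adjusted p = 0.00207), and it passed in each leave-out fit. Its list did not move with it: 9 of the 17 differences were positive, and DUSP6, a phosphatase induced by ERK, differed by 0.20 (adjusted p = 0.0697). The immediate early and AP-1 list gave 0 calls among 22, where 2 had an unadjusted p under 0.05, and the EGF ligands and receptors 0 among 9, where 1 did. The G1/S and DNA replication genes gave 0 calls among 41, with 2 at an unadjusted p under 0.05, and the G2/M genes 0 among 43, with 7. G1/S and G2/M medians were -0.04 and 0.03. Negative differences numbered 32 of 41 and 14 of 43, against 4898 of 11660 over all genes tested.

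MYC was at 151.1 and 152.8 FPKM in sh2 against 177.7 and 186.5 FPKM in sh1, with no overlap. It was 16.6% lower (log2 difference -0.26, SE 0.05, adjusted p = 0.0314), and it did not pass with any 1 of the 4 libraries left out (adjusted p 0.121 to 0.230). Of the 32 MYC targets and ribosome biogenesis genes tested, MYC itself included, 4 fell and 0 rose. Over all genes tested, 0.626% fell and 20.8% did not overlap with sh2 lower. The differences ran the same way across the list, with 31 of 32 negative and a median of -0.16, while 28 did not pass. Over all genes tested, 4898 of 11660 differences were negative. The other 3 were PPAN and RRP12, which act in the maturation of ribosomal subunits, and POLR1A, the largest subunit of RNA polymerase I. PPAN was at 20.04 and 21.16 FPKM in sh2 against 25.82 and 25.68 FPKM in sh1, POLR1A at 15.65 and 15.76 FPKM in sh2 against 18.85 and 19.09 FPKM in sh1, and RRP12 at 23.3 and 22.13 FPKM in sh2 against 28.04 and 29.56 FPKM in sh1. PPAN shares a readthrough transcript with its neighbour, so its reads may not be its own alone. The list held 0 calls without any 1 of the 4 libraries, 0 with no filter, 1 with no trend and 8 under median-of-ratios scaling, and the LDHA value was the positive exception, at 489.4 and 487.7 FPKM in sh2 and 441.4 and 437.3 FPKM in sh1 (adjusted p = 0.101). The 73 cytosolic ribosomal proteins gave 0 calls, 13 at an unadjusted p under 0.05 and a median of 0.06. Of their differences 60 were positive and 13 negative, where 6762 of 11660 were positive over all genes tested.

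The ATF4 and integrated stress response list had a median of -0.19, with 34 of 37 differences negative, of which 4 passed and 0 rose. Over all genes tested, 4898 of 11660 differences were negative and 0.626% fell by the test. STC2, a secreted glycoprotein induced by stress, was at 15.58 and 16.3 FPKM in sh2 against 21.12 and 21.76 FPKM in sh1 (log2 difference -0.41, SE 0.05, adjusted p = 0.00396). SLC7A5, the light chain of a large neutral amino acid transporter, was at 207.5 and 231.7 FPKM in sh2 against 275.6 and 306.1 FPKM in sh1 (-0.40, SE 0.07, adjusted p = 0.0202). PSAT1, an enzyme of serine synthesis, was at 73.84 and 83.49 FPKM in sh2 against 97.95 and 107.7 FPKM in sh1 (-0.38, SE 0.07, adjusted p = 0.0297). In SLC7A5 and PSAT1 replicate 2 was the higher library of each line. WARS, the tryptophan transfer RNA synthetase, fell by 0.23 and lost its call under quantile normalization (adjusted p = 0.0687). SLC3A2, the heavy chain that pairs with SLC7A5, was at 145.7 and 167.7 FPKM in sh2 and 181.8 and 196.2 FPKM in sh1 and did not pass (adjusted p = 0.0602). Between 0 and 2 calls remained with a library left out and 1 with no filter or no trend, and median-of-ratios scaling gave 7. STC2 was also the only call among 19 crypt-axis transcription and growth factors. The unfolded protein response list gave 0 calls among 21, with 5 at an unadjusted p under 0.05.

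In the opposite direction, 8 of 32 glycolysis and hypoxia genes tested rose in sh2 and 0 fell, with a median log2 difference of 0.09 and 26 positive. Under median-of-ratios scaling 7 rose and 1 fell, and with the uninduced libraries alone or the replicate block 9 rose and 1 fell. Of all 11660 genes tested, 0.832% rose and 6762 had a positive difference. Between 1 and 3 calls remained with a library left out, ALDOC in each case, 3 with no trend and 1 with no filter.

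ALDOC, the brain-type aldolase, was at 13.23 and 12.95 FPKM in sh2 against 7.37 and 8.06 FPKM in sh1. The sh2 mean was 1.70 times the sh1 mean, with a log2 difference of 0.69 (SE 0.07, adjusted p = 0.00181). NDRG1, a stress- and hypoxia-induced gene, was at 56.68 and 53.9 FPKM in sh2 against 38.77 and 39.97 FPKM in sh1 (0.48, SE 0.07, adjusted p = 0.0136). ENO2, the neuronal enolase, was at 58.87 and 53.2 FPKM in sh2 against 41.93 and 40.1 FPKM in sh1 (0.44, SE 0.05, adjusted p = 0.00516). ENO2 is also 1 of 8 neural and neuroendocrine markers listed, whose summed level was 167.7 to 170.2 FPKM in sh2 and 142 to 142.3 FPKM in sh1. TUBB3 was the highest of these markers, at 103.43 and 106.74 FPKM in sh2 and 93.57 and 94.94 FPKM in sh1. SCG2 lay between 5.62 and 7.05 FPKM, while CHGA and CHGB were at or near 0.

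BNIP3 and BNIP3L, the mitophagy receptors of the outer mitochondrial membrane, rose together. BNIP3 was at 27.39 and 25.07 FPKM in sh2 against 19.34 and 18.64 FPKM in sh1 (log2 difference 0.44, adjusted p = 0.0357), and BNIP3L was at 14.39 and 13.54 FPKM in sh2 against 10.45 and 10.42 FPKM in sh1 (0.39, adjusted p = 0.0155). KDM3A, a histone demethylase, differed by 0.41 and P4HA1, a subunit of collagen prolyl hydroxylase, by 0.33, and both passed. ANKRD37 was the lowest, at 2.95 and 3.52 FPKM in sh2 and 1.98 and 1.92 FPKM in sh1 (0.52, adjusted p = 0.0465), and lost its call under quantile normalization (adjusted p = 0.0879) and median-of-ratios scaling (0.0506). PFKFB4, a bifunctional glycolytic regulator outside the list, was at 7.38 and 7.13 FPKM in sh2 against 4.71 and 4.82 FPKM in sh1 (0.52, SE 0.06, adjusted p = 0.00530). ALDOA, the more abundant aldolase, was at 902.6 and 878 FPKM in sh2 and 833.5 and 835 FPKM in sh1 and did not pass (adjusted p = 0.216). ADM, a hypoxia-responsive peptide hormone, pointed the other way at 16.8 and 17.01 FPKM in sh2 and 20.02 and 19.29 FPKM in sh1 (adjusted p = 0.0623), so the list was not uniform.

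Hypoxia-inducible factors recognise the core letters ACGTG or GCGTG, and the stretches before the starts of ALDOC and BNIP3 are shown because both carry several. They are the 250 bases before the annotated start from RefSeq on GRCh38.p14, 5′ to 3′ in the direction of the gene, with matches on either strand in capitals. Both genes lie on the minus strand, ALDOC at chr17:28576896-28577145 and BNIP3 at chr10:131981924-131982173.
ALDOC: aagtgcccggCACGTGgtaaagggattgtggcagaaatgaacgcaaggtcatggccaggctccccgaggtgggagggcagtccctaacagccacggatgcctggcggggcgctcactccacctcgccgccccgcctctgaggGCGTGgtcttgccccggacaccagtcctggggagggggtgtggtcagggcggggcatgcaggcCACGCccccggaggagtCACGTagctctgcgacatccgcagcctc
BNIP3: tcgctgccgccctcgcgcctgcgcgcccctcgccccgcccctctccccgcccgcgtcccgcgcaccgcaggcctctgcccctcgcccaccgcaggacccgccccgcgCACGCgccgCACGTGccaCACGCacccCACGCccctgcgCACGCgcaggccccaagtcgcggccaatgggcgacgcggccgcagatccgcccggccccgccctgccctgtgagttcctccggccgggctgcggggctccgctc
The ALDOC stretch held 5 matches and that of BNIP3 held 6, where the palindrome CACGTG, found in both, counts on each strand. Of 29 list members in the RefSeq table, 17 held at least 1 match (58.6%), against 11763 of 27305 stretches in all (43.1%), again without matching for base composition. Of the 8 called members, 6 had a stretch in the table and all 6 held a match, as did 11 of 23 that did not pass. Whether hypoxia-inducible factors act at these matches was not tested.

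**Figure D3:**
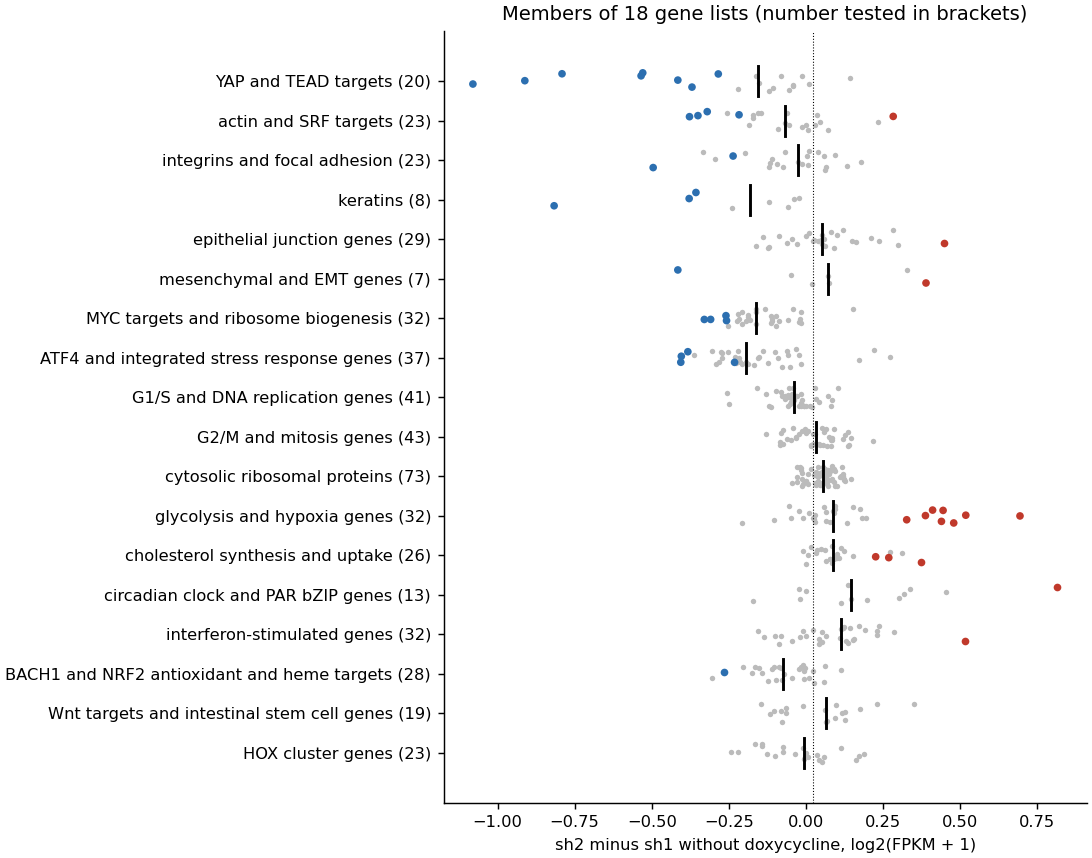
Every tested member of 18 of the 37 gene lists as the difference sh2 minus sh1 of log2(FPKM + 1) without doxycycline, red where higher and blue where lower in sh2 by the test and grey where it did not pass, with list medians as black bars and the median of all genes tested dotted. YAP and TEAD targets, keratins, MYC targets and ATF4 genes have medians left of the dotted line, at -0.16, -0.18, -0.16 and -0.19, and hypoxia genes right of it, at 0.09.

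Among the called genes, the largest rise in sh2 by log2 difference was in DBP, a transcription factor driven by the circadian clock. DBP was at 11.36 and 12.6 FPKM in sh2 against 6.71 and 6.04 FPKM in sh1, 1.88 times the sh1 mean (log2 difference 0.82, SE 0.10, adjusted p = 0.00516). It was the only call among 13 clock and PAR bZIP genes, and it passed in 1 of the 4 leave-out fits (adjusted p 0.0324 to 0.0777). Its relative TEF and the clock repressors NR1D1 and PER1 were higher in both sh2 libraries than in both sh1 libraries. Of all genes tested, 32.4% were so and 1.46% were called in either direction. These clock genes did not pass, with TEF at 4.52 and 4.75 FPKM in sh2 and 3.44 and 3.48 FPKM in sh1 (adjusted p = 0.0701). The core clock gene ARNTL overlapped, at 5.6 and 5.59 FPKM in sh2 and 5.93 and 5.48 FPKM in sh1.

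Of 26 cholesterol genes tested, 3 rose and 0 fell, 25 differences were positive and the median was 0.09, while 23 did not pass. Of all 11660 genes tested, 0.832% rose and 6762 had a positive difference. INSIG1, which holds the sterol sensor in the endoplasmic reticulum, was at 11.01 and 10.76 FPKM in sh2 against 7.87 and 8.47 FPKM in sh1 (log2 difference 0.37, SE 0.06, adjusted p = 0.0163). MSMO1, an enzyme late in the pathway, rose by 0.27. No member of the list passed with any 1 of the 4 libraries left out or with no filter, and 1 passed with no trend.

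The other large rises were in genes of varied roles. SAT1, which acetylates polyamines for export and breakdown, was the most abundant of the 15 largest rises. It was at 200.4 and 198.7 FPKM in sh2 against 130.8 and 130.2 FPKM in sh1, 1.53 times the sh1 mean (log2 difference 0.61, SE 0.07, adjusted p = 0.00369), and repeats lay within 2 FPKM of each other. PNRC1, a nuclear receptor coregulator, was at 8.62 and 10.06 FPKM in sh2 against 5.48 and 5.57 FPKM in sh1 (0.66, SE 0.07, adjusted p = 0.00311), and passed in each leave-out fit. KIAA0040, given no role here, was at 21.88 and 21.02 FPKM in sh2 against 14.13 and 13.81 FPKM in sh1 (0.58, SE 0.05, adjusted p = 0.000742), and also passed in each. CCNG2, an atypical cyclin tied to arrest, was at 4.89 and 4.61 FPKM in sh2 against 2.82 and 2.85 FPKM in sh1 (0.58, SE 0.07, adjusted p = 0.00584). PTP4A3, a phosphatase studied in colon cancer metastasis, was at 4.64 and 5.08 FPKM in sh2 against 3.17 and 2.51 FPKM in sh1 (0.61, SE 0.09, adjusted p = 0.0136). CCNG2 passed in none of the 4 leave-out fits, PTP4A3 in 1 and SAT1 in 2. CDKN1C, a cyclin-dependent kinase inhibitor, was the only call among 13 imprinted genes, at 5.85 and 5.33 FPKM in sh2 against 3.12 and 4.1 FPKM in sh1 (0.52, SE 0.10, adjusted p = 0.0392), and the call was lost under quantile normalization (adjusted p = 0.0766). Over all genes tested, 1.46% were called. H1F0, a linker histone picked after its values were seen, was at 583 and 610.4 FPKM in sh2 against 430.5 and 454.1 FPKM in sh1 (0.43, adjusted p = 0.00396).

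The rest of the 15 largest rises were of low level: PTH2, RNASE4, IFI27 and the antisense transcript TYMSOS, all under 6 FPKM in each line. IFI27 was at 2.05 and 2.02 FPKM in sh2 and 1.09 and 1.16 FPKM in sh1 and was the only call among 32 interferon-stimulated genes. Over all genes tested, 1.46% were called. PSMB9, an immunoproteasome subunit, at 7.53 and 6.73 FPKM in sh2 and 4.99 and 5.19 FPKM in sh1, was the only call among 16 genes of class I antigen presentation. Quantile normalization ended these 2 calls (adjusted p = 0.0556 for IFI27 and 0.0666 for PSMB9), and those of PTH2 (0.0561), RNASE4 (0.0681) and TYMSOS (0.0571). TYMSOS lies opposite another gene and no strand setting is stated, and RNASE4 shares exons with a neighbouring ribonuclease gene.

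The rest of the 15 largest falls included GALNT5, which starts mucin-type glycosylation, at 2.78 and 2.31 FPKM in sh2 and 4.09 and 3.69 FPKM in sh1 (log2 difference -0.47). BDNF, a neurotrophin, was at 3.03 and 2.96 FPKM in sh2 and 4.31 and 4.72 FPKM in sh1 (-0.46). PLK2, a polo-like kinase, was at 11.91 and 11.32 FPKM in sh2 and 17.36 and 15.26 FPKM in sh1 (-0.45). These 3 did not overlap between the lines, and each passed in none of the 4 leave-out fits. Over all genes tested, 20.8% did not overlap with sh2 lower and 1.46% were called in either direction. PLK2 fell and DDB2, a damage-binding protein, rose by 0.28 among 27 p53 targets, so the list had no single direction. DDB2 lost its call under quantile normalization (adjusted p = 0.0563) and median-of-ratios scaling (0.06). The other 3 of the 15 have near-identical relatives and are uncertain: TMEM183B was at 1.71 and 0.56 FPKM in sh2 and 2.85 and 4.3 FPKM in sh1, RABL2A at 1.44 and 1.08 FPKM in sh2 and 2.67 and 2.75 FPKM in sh1, and HIST1H2AG at 0.68 and 0.68 FPKM in sh2 and 1.56 and 1.54 FPKM in sh1. The TMEM183B call was also lost with a pseudocount of 0.1 (adjusted p = 0.0526). HIST1H2AG was the only call among 10 replication-dependent histone genes, whose transcripts mostly lack poly(A) tails.

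Other pathways gave 1 call or 0, where 1.46% of all genes tested were called. Of 28 BACH1 and NRF2 targets, TXNRD1, a thioredoxin reductase, fell to 165.3 and 160.5 FPKM in sh2, against 201.4 and 190.6 FPKM in sh1 (log2 difference -0.27, adjusted p = 0.0175), with a list median of -0.08. Of the 28 differences 22 were negative, against 4898 of 11660 over all genes tested, and 10 had an unadjusted p under 0.05. Of 4 metallothioneins, MT1E fell by 0.24, a call that quantile normalization ended (adjusted p = 0.0965), and its relatives are near copies. The 19 Wnt and stem cell genes, 16 TGF-beta and BMP genes, 15 NF-kB genes and 6 colonic differentiation genes gave 0 calls, with 4, 7, 1 and 0 of them at an unadjusted p under 0.05. The 5 class II antigen presentation genes, 7 drug metabolism genes and 4 cancer-testis genes tested gave 0 calls as well, with 0, 2 and 1 at an unadjusted p under 0.05. MAGEA2B, a cancer-testis gene outside the list, was called lower, at 37.55 and 36.32 FPKM in sh2 and 42.56 and 46.77 FPKM in sh1 (adjusted p = 0.0345). It was named after its values were seen and has a near-identical copy. In all, 52 of the 170 called genes were in a list and 118 in none.

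The largest differences of all were not calls. SULT1A3 was at 14.33 and 7.49 FPKM in sh2 and 0 and 9.36 FPKM in sh1 (log2 difference 1.83, adjusted p = 0.309). NPIPA7 was listed at 0 in all but sh1 replicate 1, where it was at 5.67 FPKM (-1.37, adjusted p = 0.270). Both belong to families of near-identical copies, and the repeats of a line disagree. LEMD1 was at 4.03 and 3.3 FPKM in sh2 and 1.91 and 1.01 FPKM in sh1 (0.94, adjusted p = 0.0698). NEDD8-MDP1, a readthrough transcript that shares exons with its neighbours, was at 3.77 and 4.35 FPKM in sh2 and 1.33 and 2.3 FPKM in sh1 (0.87, adjusted p = 0.112). The lines did not overlap in either of these, as in 53.1% of all genes tested, and both differences were larger than that of DBP. These genes were picked after their values were seen.

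The lines could be compared again in the 4 libraries made with doxycycline, which share no library with the comparison above but share its estimate of the spread. There 7 genes passed (0.06% of genes tested), 2 higher and 5 lower in sh2, with 1162 at an unadjusted p under 0.05. Of the 7, 5 were also called without the drug with the same sign, which is 71.4% of the calls with doxycycline and 2.94% of those without. CPA4 was at 18.21 and 18.9 FPKM in induced sh2 against 28.32 and 27.77 FPKM in induced sh1 (log2 difference -0.57, SE 0.05, adjusted p = 0.00480). CAV1 was at 75.07 and 74.79 FPKM in induced sh2 against 95.09 and 96.58 FPKM in induced sh1 (-0.35, SE 0.04, adjusted p = 0.0229). KIAA0040 was at 16.25 and 15.78 FPKM in induced sh2 against 11.61 and 11.83 FPKM in induced sh1 (0.42, SE 0.05, adjusted p = 0.0229). These 3 differed between the lines in both states and passed without the drug whichever of the 4 uninduced libraries was left out. The other 2 shared genes were STC2, at 21.97 and 22.19 FPKM in induced sh2 and 29.16 and 28.09 FPKM in induced sh1, and ANXA3, an annexin, at 72.35 and 74.98 FPKM in induced sh2 and 91.03 and 89.7 FPKM in induced sh1. The 2 genes called only with doxycycline were C18orf32, at 10.78 and 10.74 FPKM in induced sh2 and 15.98 and 14.59 FPKM in induced sh1, and its readthrough partner RPL17-C18orf32, at 7.63 and 9.98 FPKM in induced sh2 and 4.63 and 4.33 FPKM in induced sh1. They moved in opposite directions and share exons, so how reads were divided between them is uncertain. Leaving out 1 of the 8 libraries left 0 to 3 of the calls with doxycycline.

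Directions carried over more widely than calls. Of the 170 genes, 164 had the same sign with doxycycline (96.5%, against 66.1% of all genes tested), 94 of 97 higher ones and 70 of 73 lower ones. In 137 the induced groups also did not overlap in that direction, where 36.7% of all genes tested had induced groups that did not overlap in either direction, and 110 had an unadjusted p under 0.05 with the same sign. The differences were smaller with the drug in 167 of the 170, with a median of 0.469 of the uninduced difference, though the 170 were chosen for a large uninduced difference. Across genes the differences of the 2 states correlated at r = 0.466 over all genes tested and 0.829 over the 170, as a description, since genes are not independent.

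**Figure D4:**
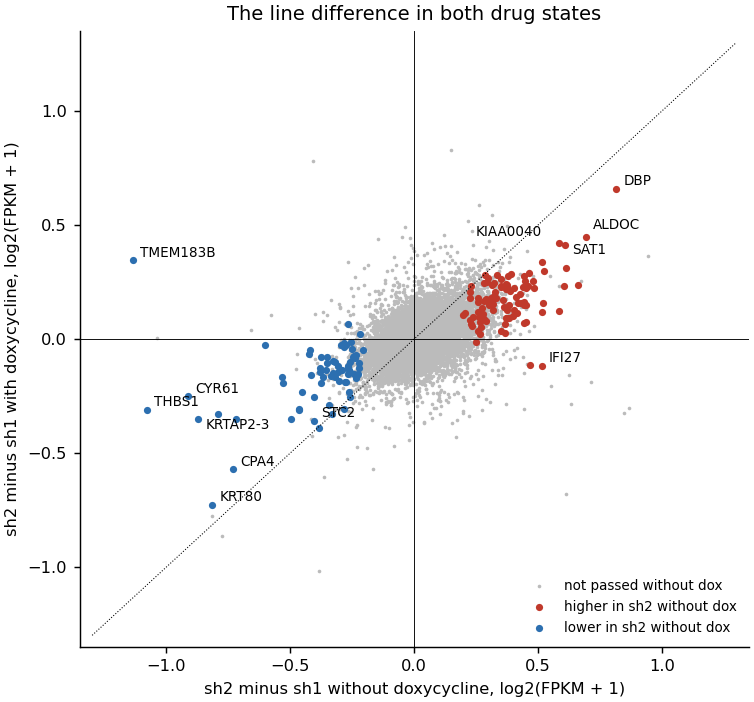
Each point is a gene tested, with the log2(FPKM + 1) difference sh2 minus sh1 without doxycycline across and with doxycycline up, red and blue marking the genes called higher and lower without the drug and the dotted line equal differences. Called genes lie mostly in the 2 quadrants of equal sign between the horizontal axis and the dotted line, and CPA4, KRT80 and DBP lie close to it while THBS1 and CYR61 do not.

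Genes varied in how much of the difference was there with the drug. KRT80 was at 1.89 and 2.43 FPKM in induced sh2 and 3.65 and 4.84 FPKM in induced sh1, a log2 difference of -0.73 beside -0.82 without the drug. DBP was at 19.76 and 19.77 FPKM in induced sh2 and 13.86 and 10.66 FPKM in induced sh1, 0.66 beside 0.82. Both groups of libraries were apart in each state, although neither gene passed with the drug (adjusted p = 0.113 for KRT80 and 0.0699 for DBP). THBS1 was at 3.97 and 2.85 FPKM in induced sh2 and 4.87 and 4.02 FPKM in induced sh1, -0.31 beside -1.08. CYR61 was at 5.67 and 4.38 FPKM in induced sh2 and 6.26 and 6.01 FPKM in induced sh1, -0.25 beside -0.91. KRTAP2-3 was at 11.42 and 12.18 FPKM in induced sh2 and 15.5 and 15.1 FPKM in induced sh1, -0.35 beside -0.87. For these 3 the uninduced sh1 libraries stood above the other 3 groups. Among the 73 genes lower in sh2, uninduced sh1 had the highest of the 4 group means in 65, and among the 97 higher ones it had the lowest in 80, in genes that were chosen for a difference that includes this group.

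Whether a line difference changed with the drug was tested directly. The difference of the 2 line differences gave 0 calls by limma among 11660 genes (0%), 563 genes had an unadjusted p under 0.05, and the lowest adjusted p was 0.683. KRTAP2-3 had that lowest value, with a difference of differences of -0.52 (SE 0.10). Of the 170 genes, 91 had an unadjusted p under 0.05. These genes were chosen for a large uninduced difference, which is part of the value tested, so no conclusion is drawn from that count. The test gave 2 calls without uninduced sh1 replicate 1 and 3 without uninduced sh1 replicate 2.

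The list results can be set side by side in both states. With doxycycline the median log2 difference was -0.12 for YAP and TEAD targets, -0.09 for MYC targets, -0.15 for ATF4 genes and -0.13 for keratins, where it was -0.16, -0.16, -0.19 and -0.18 without the drug. It was 0.04 for hypoxia genes and 0.08 for cholesterol genes, beside 0.09 and 0.09, and 0.0033 over all genes tested beside 0.02. The signs matched in both states for all 20 YAP and TEAD targets, all 32 MYC targets and 35 of 37 ATF4 genes, but for 24 of 32 hypoxia genes. With the drug 1 ATF4 gene passed, which was STC2, and 0 of the YAP, MYC, hypoxia or cholesterol lists.

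The median log2 difference of a chromosome ran between 0.01 and 0.04, and calls were made on every chromosome listed except 21. Chromosome 19 had 14 higher and 7 lower calls among 851 genes tested, and chromosome 1 had 10 higher and 4 lower among 1200, where 1.46% of all genes were called. Over runs of 30 neighbouring tested genes the lowest median was -0.08, between DDX28 and AARS on chromosome 16, and the highest 0.13, between KCNJ14 and SLC6A16 on chromosome 19, with 0 and 2 calls. The most calls in a run were 4, between PDLIM2 and PBK on chromosome 8. Gene order was taken from a RefSeq table of another build and serves only to say which genes neighbour each other.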

How the data were processed

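Polyadenylated RNA of 8 HCT116 libraries was sequenced. The submitters' processing notes name HISAT, Bowtie2 and the build hg19, without versions or the role of each tool. How expression was quantified is not stated in the labels. The values the authors deposited are FPKM, scaled by transcript length and library size, so depth is unknown and no count model was fitted. Date-like symbols of 27 genes were restored through their Entrez numbers. A RefSeq table (GRCh38.p14) held 17131 of all Entrez numbers.

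Genes averaging 1 FPKM or more in the uninduced libraries were analysed as log2(FPKM + 1), a scale that understates changes of low genes. A group-means model was fitted with limma 3.58.1 (R 4.3.3) to all 8 libraries, leaving 4 residual degrees of freedom, with trended moderation and two-sided tests. P-values were adjusted by Benjamini-Hochberg across 11660 genes, and 0.05 was the limit for a call. The contrasts were sh2 minus sh1 without doxycycline, with it, and the difference of both. An exact permutation test of 2 against 2 libraries cannot give less than p = 0.333. The fit was also run on simulated data. The simulated shifts were larger than the median size of the calls, so that run does not bear on smaller differences. Figures used matplotlib 3.10.9.

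The members and the 37 gene lists were chosen with earlier results of these data known. The rule for names took HOXB8, BACH1 and MYC, the 15 strongest rises and 15 strongest falls among calls without overlap, and for each list at most 4 genes of lowest p. A result for 1 gene the rule names is not reported here. Genes outside the rule were chosen after their values were seen. Lists are described by counts and medians. Deviations of equally numbered replicates correlated at -0.03 to 0.21 between groups, and numbers were not taken as pairs. These values do not settle whether replicates of equal number shared an effect.

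Alternatives were a pseudocount of 0.1, no filter, a filter over all 8 libraries, quantile normalization, median-of-ratios scaling, the uninduced libraries alone, robust moderation, no trend, the replicate block and leaving out each library.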

Additional observations from a re-analysis of the deposited data

Results flagged for a closer look

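TMEM183B and MAGEA2B had line differences of opposite sign in the 2 drug states, with groups that did not overlap in either state. Groups did not overlap in 53.1% of all genes tested without the drug and in 36.7% with it. Only the differences without the drug passed in limma. Those with it did not (limma adjusted p = 0.647 for TMEM183B and 0.732 for MAGEA2B). TMEM183B had a log2 difference of -1.14 without doxycycline and 0.35 with it. It was at 1.71 and 0.56 FPKM in sh2 and 2.85 and 4.3 FPKM in sh1 without the drug, and at 2.56 and 2.28 FPKM in sh2 and 1.52 and 1.87 FPKM in sh1 with it. MAGEA2B, a cancer-testis gene, had a log2 difference of -0.27 without doxycycline and 0.064 with it. It was at 37.55 and 36.32 FPKM in sh2 and 42.56 and 46.77 FPKM in sh1 without the drug, and at 41.45 and 40.61 FPKM in sh2 and 38.67 and 39.75 FPKM in sh1 with it. Tested directly, neither difference between the states passed in limma (adjusted p = 0.694 for both). Both genes have near-identical copies in the genome, so their values may hold reads of a relative, which was not tested.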

How the results depend on the processing

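Across the alternatives no called gene changed direction. Only quantile normalization or median-of-ratios scaling could have reversed one, because the groups of each called gene did not overlap. The 170 calls without doxycycline became 23 with no filter, 506 with the 4 uninduced libraries alone, 68 with no trend in the moderation and 504 with the replicate block, and ran between 13 and 368 with 1 of the 8 libraries left out. The 2 largest of these counts include all 170 genes. With no filter, 17166 genes were tested and 21 of the 170 kept their call. The 7 calls with doxycycline became 0 with no filter, 3 under quantile normalization, 0 with no trend and 21 with the replicate block, and 0 to 3 with a library left out. The 5 genes called in both states became 0, 3, 0 and 17 in the same order, and 0 to 3 with a library left out. The 0 calls of the difference between states became 0 to 3 with a library left out. The replicate block is a fit by number alone, since the numbers were not taken as pairs, and whether equal numbers shared a step is not known. Where a fit left a group with 1 library, that library was assumed to vary like the others. The cause of these changes was not tested, apart from the fewer libraries or the larger number of genes that a setting brings. With the uninduced libraries alone, no value with doxycycline can be had. Without total reads, the counting error of low genes is unknown.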
